A study of Mus musculus with 4 samples.

Results

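Genes of cholesterol synthesis were followed on 4 arrays of cells taken from mouse lymph nodes draining a tumour and selected for podoplanin, which lymphatic endothelium and reticular fibroblasts carry on their surface. The set was defined by gene symbol, but it was chosen with earlier results of these data known, so contrasts with all genes are descriptive. It held 8 of the 18193 genes with a probe set here. Hmgcs1, Idi1, Fdft1, Sqle, Lss and Cyp51 encode enzymes of the pathway, and Insig1 and Srebf2 encode regulators of it. The 8 genes had 21 of the 45037 probe sets, and the brightest probe set of a gene, by its mean over the 4 arrays, stands for that gene. The working name of the set also covers LDL uptake, but none of the 8 encodes a lipoprotein receptor, so receptors are described as a separate list.

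Animals were female SCID/NOD mice of 6 to 8 weeks carrying subcutaneous tumours of the human embryonic kidney line 293. Metastatic tumours were 293-VEGF-D, made to overexpress the lymphatic growth factor VEGF-D, and non-metastatic ones were 293-Apex. Each group had 2 preparations, labelled biological replicates 1 and 2, each a pool from 1 to 5 mice and hybridized to its own array. The host strain is immunodeficient, and the cells of both groups had been cultured for a short time in endothelial medium before selection. Metastatic nodes were used only where visibly enlarged, and by the sorting label tumour cells and leukocytes were depleted only in the metastatic preparations, although the growth protocol describes depletion for both. The effects of node size, depletion and VEGF-D cannot be told apart from that of metastasis. Values below are log2 signals after quantile normalization, and levels are compared only within a probe set, not between genes.

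Mammalian cells build cholesterol from acetyl-CoA, through mevalonate and isoprenoid units to squalene, which is closed into lanosterol and trimmed to cholesterol. When membranes of the endoplasmic reticulum run low in sterol, the escort protein SCAP carries the precursor of SREBP2 to the Golgi, where proteases release the part that enters the nucleus and switches on genes of synthesis and of LDL uptake. When sterol is ample, INSIG proteins hold SCAP back, and INSIG1 is itself made under SREBP control, which closes a feedback loop. Endothelial and stromal cells in culture either take up lipoprotein cholesterol from serum or make their own.

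Promoter windows are shown for 3 genes picked with their array values known. Hmgcs1, with a wide spread between arrays, and Insig1 both had the array order of most enzymes. Srebf2 hardly varied on its brightest probe set. A window runs from 250 bases before to 50 bases after the RefSeq start of a gene (build GRCm38.p6), and 6 of the 8 genes had 1 window in the table, all but Sqle and Fdft1. The Hmgcs1 window lies at chr13:119690101-119690400, plus strand, that of Insig1 at chr5:28071162-28071461, plus strand and that of Srebf2 at chr15:82147019-82147318, plus strand. Capitals mark matches on either strand to CCAAT, the letters bound by NF-Y, a common partner of SREBP, and to TCACNCCAC, a core of the sterol regulatory element.
Hmgcs1: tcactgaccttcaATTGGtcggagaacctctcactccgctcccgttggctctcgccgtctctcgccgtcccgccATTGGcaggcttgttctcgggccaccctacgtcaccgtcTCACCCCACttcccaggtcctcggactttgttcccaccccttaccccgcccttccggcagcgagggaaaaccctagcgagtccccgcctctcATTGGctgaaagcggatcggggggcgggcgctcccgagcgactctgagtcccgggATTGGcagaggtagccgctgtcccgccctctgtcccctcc
Insig1: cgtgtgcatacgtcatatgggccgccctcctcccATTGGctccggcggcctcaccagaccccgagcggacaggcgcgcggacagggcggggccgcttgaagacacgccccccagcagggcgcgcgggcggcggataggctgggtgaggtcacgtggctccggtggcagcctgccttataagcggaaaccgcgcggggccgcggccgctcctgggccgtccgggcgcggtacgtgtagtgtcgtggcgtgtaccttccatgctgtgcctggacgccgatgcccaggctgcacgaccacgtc
Srebf2: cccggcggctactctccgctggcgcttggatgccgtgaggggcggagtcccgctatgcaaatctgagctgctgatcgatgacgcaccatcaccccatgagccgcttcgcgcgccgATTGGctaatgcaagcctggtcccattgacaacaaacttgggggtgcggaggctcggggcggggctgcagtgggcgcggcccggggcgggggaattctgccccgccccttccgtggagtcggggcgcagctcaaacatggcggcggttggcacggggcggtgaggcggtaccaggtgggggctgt

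The element core TCACNCCAC was found in 1 of the 6 windows, that of Hmgcs1, and in 1.24% of all 32851 windows. Its match in Hmgcs1 began 137 bases before the start and overlapped no match of the other motifs. The letters CCAAT were found in 6 of 6 windows and in 37.4% of all windows, with 4 matches in Hmgcs1, 2 in Idi1 and 1 in each of the other windows. GGGCGG, the core of an SP1 site, was also found in 6 of 6 and in 35.7% of all windows. The E-box CACGTG was found in 1 of 6, that of Insig1, and in 7.15% of all windows. These matches are descriptions of letters in a window. The windows shown were picked with array values known, and no match was tested against an expression value.

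Array-wide differences bear on what follows. Between the groups, none of the 45037 probe sets reached an adjusted p under 0.05 (limma, Benjamini-Hochberg), which is 0% of genes, and 2731 had an unadjusted p under 0.05. Metastatic replicate 2 stood apart in a list of 14 measured hypoxia and glycolysis genes, whose mean log2 signal was 9.76 and 11.37 on the metastatic arrays and 9.72 and 9.82 on the non-metastatic arrays. Of 8 endothelial markers 3 were higher and 5 lower in metastatic preparations, with a median difference of -0.10. The list mean was 5.92 and 5.52 on the metastatic arrays against 6.35 and 5.97 on the non-metastatic arrays. Emcn, with by far the widest difference of that list, weighs on this mean. It had 6.50 and 5.66 against 8.77 and 8.45, a difference of -2.53 (SE 0.29, limma adjusted p = 0.185). Of 5 lymphatic markers 2 were higher and 3 lower, with a median difference of -0.13. Lyve1 had 6.32 and 4.23 against 8.26 and 7.80, a difference of -2.76 (SE 0.64, limma adjusted p = 0.498). Prox1 had 4.12 and 3.74 against 4.17 and 3.96, and Flt4 had 6.18 and 6.39 against 6.61 and 6.23. Pdpn, whose protein served for selection, had 10.89 and 10.83 against 10.35 and 10.35, and Reln had 5.55 and 5.08 against 5.06 and 5.07. Without detection calls none of these can be called present or absent. The 7 fibroblastic stroma genes averaged 11.44 and 11.24 on the metastatic arrays and 11.39 and 11.20 on the non-metastatic arrays. In such mixed preparations fewer cells of a type and less RNA per cell cannot be told apart.

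The enzymes of cholesterol synthesis varied more between the 2 preparations of a group than between the groups. For 7 of the 8 genes, all except Srebf2, the array labelled replicate 1 was higher than that labelled replicate 2 in both the metastatic and the non-metastatic group, against 25.3% of all genes. The median gap between replicates (replicate 1 minus replicate 2) was 0.85 log2 units between metastatic and 0.49 between non-metastatic preparations, against -0.02 and -0.01 over all genes. Metastatic minus non-metastatic, 7 of the 8 genes were higher, with a median difference of 0.26 against 0.00 over all genes, and none of the 8 passed. At an unadjusted p under 0.05 there were also 0 of 8, where 2.63% of all genes were higher and 4.07% lower. The groups did not overlap for 1 of the 8, Srebf2, which was higher in metastatic preparations, where 17.2% of all genes lay wholly higher and 17.3% wholly lower.

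**Figure D1:**
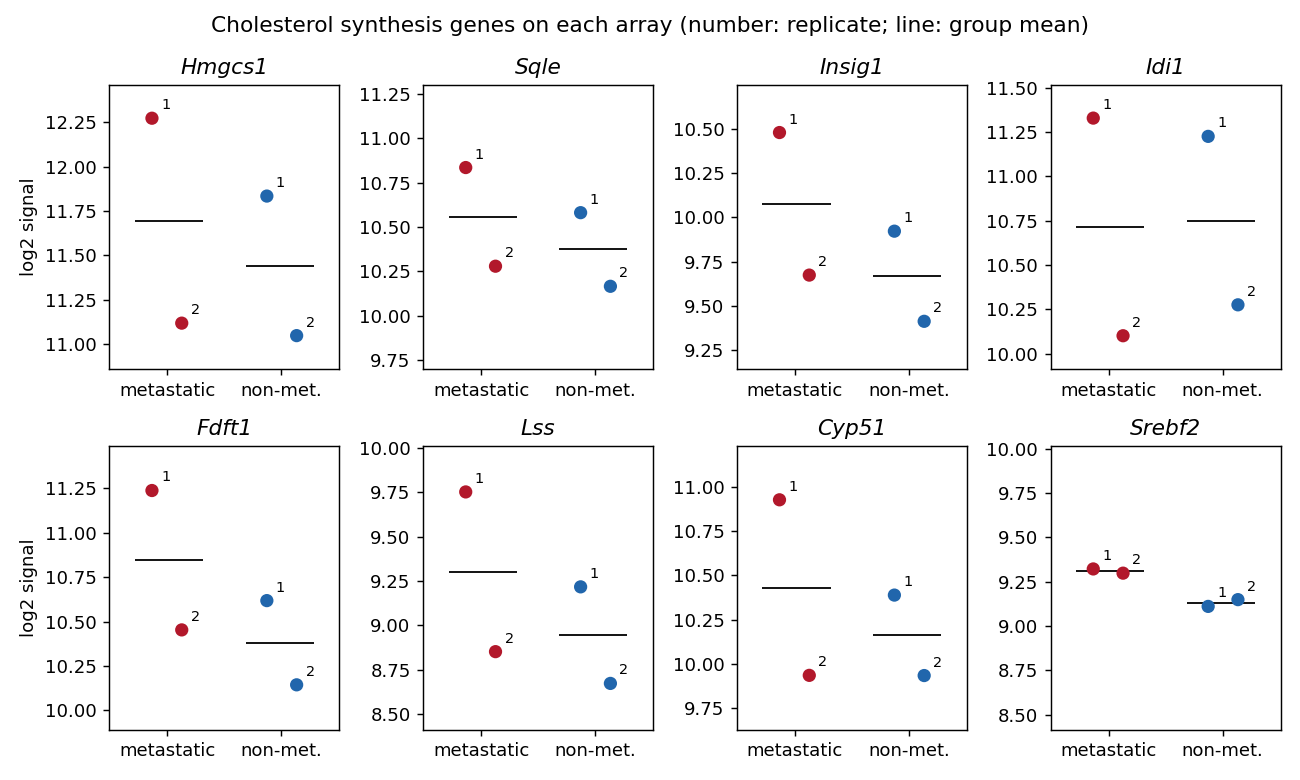
Log2 signal (y axis) of each gene's representative probe set on the 2 metastatic arrays (red, left) and the 2 non-metastatic arrays (blue, right); numbers give the replicate label, lines the group means, and every panel spans the same height on the log2 scale. In each panel but that of Srebf2 the point labelled 1 lies above the point labelled 2 in both groups, by 1.23 and 0.95 units for Idi1.

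At the head of the pathway, Hmgcs1 encodes the cytosolic HMG-CoA synthase, which condenses acetyl units on the way to mevalonate. Its signal was 12.27 and 11.12 on the metastatic arrays, against 11.83 and 11.05 on the non-metastatic arrays. The high array of each group lay above the low array of the other, so the groups overlapped. The gap between replicates was 2.23-fold among metastatic and 1.72-fold among non-metastatic preparations. The group means were 11.69 ± 0.82 and 11.44 ± 0.56 (SD, n = 2 each), a difference of 0.25 (SE 0.43, 95% interval -0.80 to 1.31; limma adjusted p = 0.984). Without metastatic replicate 1 the difference was -0.32, without non-metastatic replicate 2 it was -0.14, and without metastatic replicate 2 or non-metastatic replicate 1 it was 0.83 or 0.65. All 5 probe sets of Hmgcs1 had the replicate 1 array higher in both groups, with group differences of 0.23 to 0.48.

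Idi1 encodes isopentenyl diphosphate isomerase, which interconverts the isoprenoid building blocks. Its values were 11.33 and 10.10 on the metastatic arrays and 11.22 and 10.28 on the non-metastatic arrays. Idi1 was the exception in direction, and its group means nearly coincided, at 10.71 ± 0.87 and 10.75 ± 0.67 (SD, n = 2 each), a difference of -0.04 (SE 0.47, 95% interval -1.20 to 1.13; limma adjusted p = 0.997). That interval leaves room for a change of more than 2-fold either way, so the data do not show that the groups were alike. Leaving out metastatic replicate 1 or non-metastatic replicate 2 gave -0.65 or -0.51, and leaving out metastatic replicate 2 or non-metastatic replicate 1 gave 0.58 or 0.44. The other probe set of Idi1 had a difference of -0.07. Its gaps between replicates were 1.18 and 1.09, against 1.23 and 0.95 on the brightest probe set. There non-metastatic replicate 1 stood highest, at 10.25 against 10.23 for metastatic replicate 1.

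Squalene formation and closure are represented by Fdft1, Sqle and Lss. Fdft1, the squalene synthase that commits isoprenoids to sterols, had 11.24 and 10.45 on the metastatic arrays and 10.62 and 10.14 on the non-metastatic arrays. Here the metastatic preparation with the lower signal reached less than the higher non-metastatic one, and the difference, 0.46 (SE 0.29, 95% interval -0.26 to 1.19; limma adjusted p = 0.933), was the highest of the 8. It was 0.86 with metastatic replicate 2 left out, 0.70 with non-metastatic replicate 1 left out, 0.23 with non-metastatic replicate 2 left out and 0.07 with metastatic replicate 1 left out. A second bright probe set of Fdft1, which the array's naming marks as open to cross-hybridization, gave 0.34. The mean of its 4 probe sets gave 0.27. A pair of low-signal ones gave 0.23 and 0.06, and one of them had the replicate 2 array higher in both groups (6.19 and 6.30 on the metastatic arrays, 6.07 and 6.30 on the non-metastatic arrays).

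Sqle, the squalene epoxidase that performs the oxygen-dependent step before ring closure, had 10.84 and 10.28 on the metastatic arrays and 10.58 and 10.17 on the non-metastatic arrays. Its gaps between replicates, 1.47-fold and 1.33-fold, were the smallest of the 6 enzymes for the metastatic and the non-metastatic group. The group difference was 0.18 (SE 0.23, 95% interval -0.39 to 0.76; limma adjusted p = 0.974), and it was -0.09 with metastatic replicate 1 left out, -0.02 with non-metastatic replicate 2 left out, 0.46 with metastatic replicate 2 left out and 0.39 with non-metastatic replicate 1 left out.

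Lss, the lanosterol synthase that closes the sterol rings, had 9.75 and 8.85 on the metastatic arrays and 9.22 and 8.67 on the non-metastatic arrays. Its groups overlapped in the same way, with a difference of 0.36 (SE 0.33, 95% interval -0.46 to 1.17; limma adjusted p = 0.966). The difference was -0.09 with metastatic replicate 1 left out, 0.08 with non-metastatic replicate 2 left out, 0.81 with metastatic replicate 2 left out and 0.63 with non-metastatic replicate 1 left out. The array's naming marks this Lss probe set as shared by several genes, so its signal may include another gene's transcripts. A second, unmarked and dimmer probe set had 7.10 and 5.95 against 6.13 and 5.66, a difference of 0.62, and the remaining one had 0.16 with the replicate 1 array higher in the metastatic group alone.

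Cyp51, the sterol demethylase that starts the trimming of lanosterol, had 10.93 and 9.94 on the metastatic arrays and 10.39 and 9.94 on the non-metastatic arrays. The low arrays of both groups had nearly the same signal, and the group difference came to 0.27 (SE 0.34, 95% interval -0.57 to 1.11; limma adjusted p = 0.975). It was -0.23 with metastatic replicate 1 left out, 0.04 with non-metastatic replicate 2 left out, 0.76 with metastatic replicate 2 left out and 0.50 with non-metastatic replicate 1 left out. The other probe sets of Cyp51 stood at 0.37 and -0.07, and both had the replicate 1 array higher in each group.

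Among the regulators, Insig1 behaved like the enzymes, and Srebf2, on its brightest probe set, did not. Insig1, the sterol-sensitive retention protein, had 10.48 and 9.67 on the metastatic arrays and 9.92 and 9.41 on the non-metastatic arrays. Its difference was 0.41 (SE 0.30, 95% interval -0.34 to 1.15; limma adjusted p = 0.951), and it was 0.01 with metastatic replicate 1 left out, 0.15 with non-metastatic replicate 2 left out, 0.81 with metastatic replicate 2 left out and 0.66 with non-metastatic replicate 1 left out. Srebf2, which encodes the SREBP2 precursor, had 9.32 and 9.30 on the metastatic arrays and 9.11 and 9.15 on the non-metastatic arrays. Both metastatic arrays lay above both non-metastatic arrays, and replicates differed by 0.02 and -0.04 (replicate 1 minus replicate 2). The group means of Srebf2 were 9.31 ± 0.02 and 9.13 ± 0.03 (SD, n = 2 each), a difference of 0.18 (SE 0.11, 95% interval -0.08 to 0.44; limma adjusted p = 0.924), and it stayed between 0.16 and 0.20 with any single array left out. The second probe set of Srebf2 had 9.00 and 8.76 against 8.90 and 8.74, so that there the groups overlapped, with a difference of 0.06. On that probe set the replicate 1 array was higher in both groups, by 0.25 and 0.16, and the arrays stood in the order of most enzymes.

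**Figure D2:**
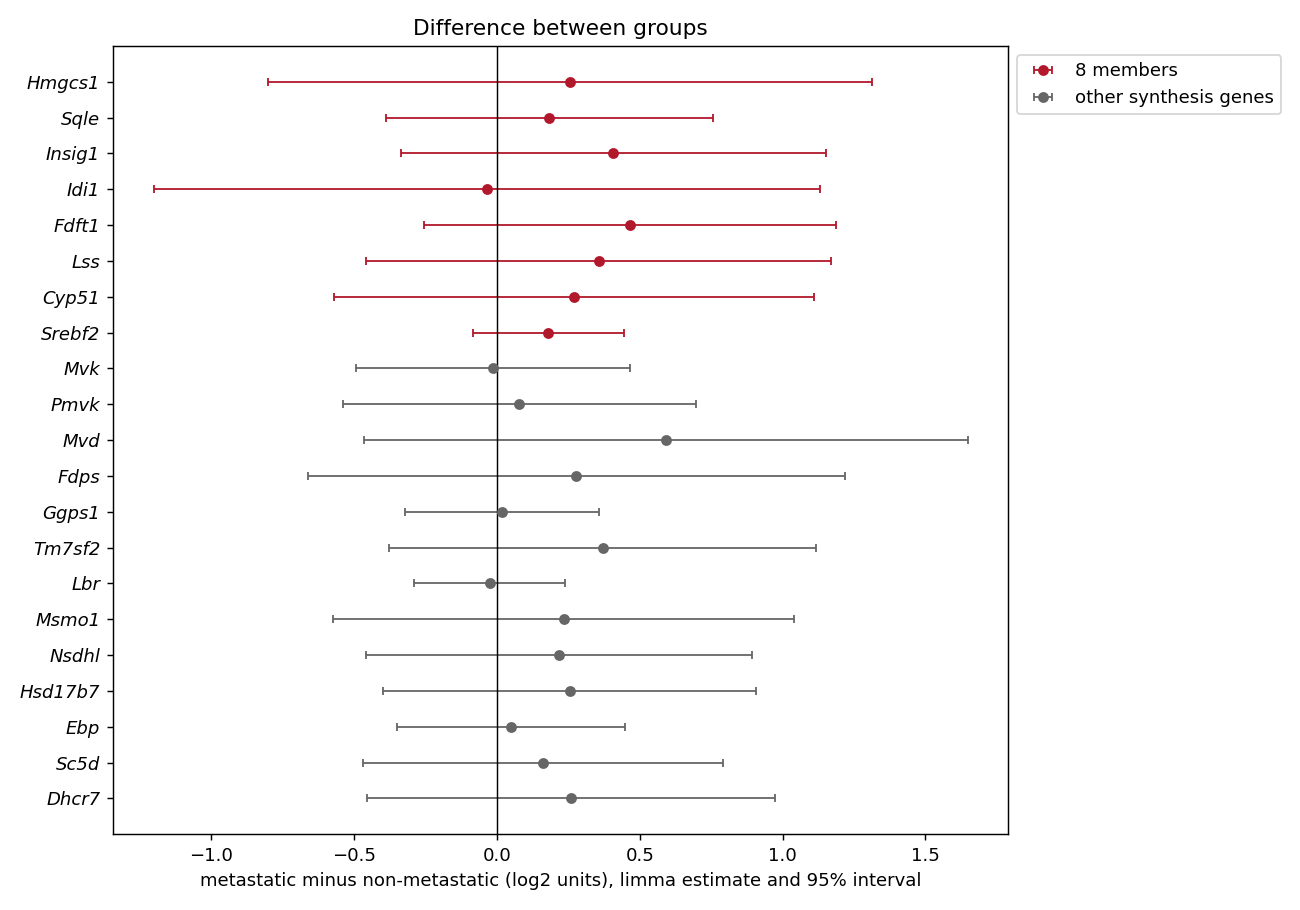
Metastatic minus non-metastatic difference in log2 units (x axis) for the 8 genes (red) and 13 other synthesis genes (grey), with limma's 95% interval as bars. Every interval shown includes 0, and those of Idi1 (-1.20 to 1.13) and Hmgcs1 (-0.80 to 1.31) are wide while that of Srebf2 (-0.08 to 0.44) is narrow.

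With 2 arrays a group, leaving out 1 moves a gene's difference by an amount set by that group's gap between replicates. Such values therefore restate those gaps. Across the 8 genes the median group difference was 0.26, and it changed with the array left out. It was -0.09 with metastatic replicate 1 left out, with 3 of 8 genes higher, and 0.06 with non-metastatic replicate 2 left out, with 5 of 8 higher. Without metastatic replicate 2 it was 0.79 and without non-metastatic replicate 1 it was 0.56, with 8 of 8 higher each time. In none of these fits did a gene of the 8 pass after adjustment over all probe sets. The order of the arrays, described after the values were seen, was metastatic 1, non-metastatic 1, metastatic 2, non-metastatic 2 from high to low for 6 of the 8 genes (Hmgcs1, Sqle, Insig1, Fdft1, Lss and Cyp51) and for 4.36% of all genes.

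The other genes of the pathway were taken from a list of 16, of which 13 had a probe set here. None of the 13 passed and none had an unadjusted p under 0.05; 11 were higher and 2 lower in metastatic preparations, with a median difference of 0.22. The replicate 1 array was higher in both groups for 12 of the 13, against 25.3% of all genes. The exception was the sterol reductase and lamin B receptor gene Lbr. Of 5 genes of the mevalonate arm, the decarboxylase gene Mvd had 9.21 and 7.94 on the metastatic arrays and 8.27 and 7.69 on the non-metastatic arrays, a difference of 0.59 (SE 0.43), which was -0.04 with metastatic replicate 1 left out and 1.23 with metastatic replicate 2 left out. Fdps, which makes farnesyl diphosphate, had 12.47 and 11.44 against 12.01 and 11.34, a difference of 0.28 (SE 0.38), and the kinase gene Pmvk one of 0.08 (SE 0.25). Without metastatic replicate 1 these values were -0.24 and -0.26, and as the mean of its probe sets Fdps gave 0.13. By the array's naming, the Mvd probe set is shared by several genes.

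In the sterol arm, 8 of 9 listed genes were measured, and 7 were higher and 1 lower. The sterol reductase gene Tm7sf2 had 8.74 and 7.91 on the metastatic arrays and 8.19 and 7.71 on the non-metastatic arrays, a difference of 0.37 (SE 0.30). Hsd17b7 and Dhcr7, which encode reductases of later steps, differed by 0.25 (SE 0.26) and 0.26 (SE 0.29), and Hsd17b7 gave 0.17 as the mean of its probe sets. For these 3 genes the values were -0.04, -0.09 and -0.15 with metastatic replicate 1 left out. Like the enzymes among the 8, they overlapped between groups. By the array's naming, the Hsd17b7 probe set is open to cross-hybridization.

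**Figure D3:**
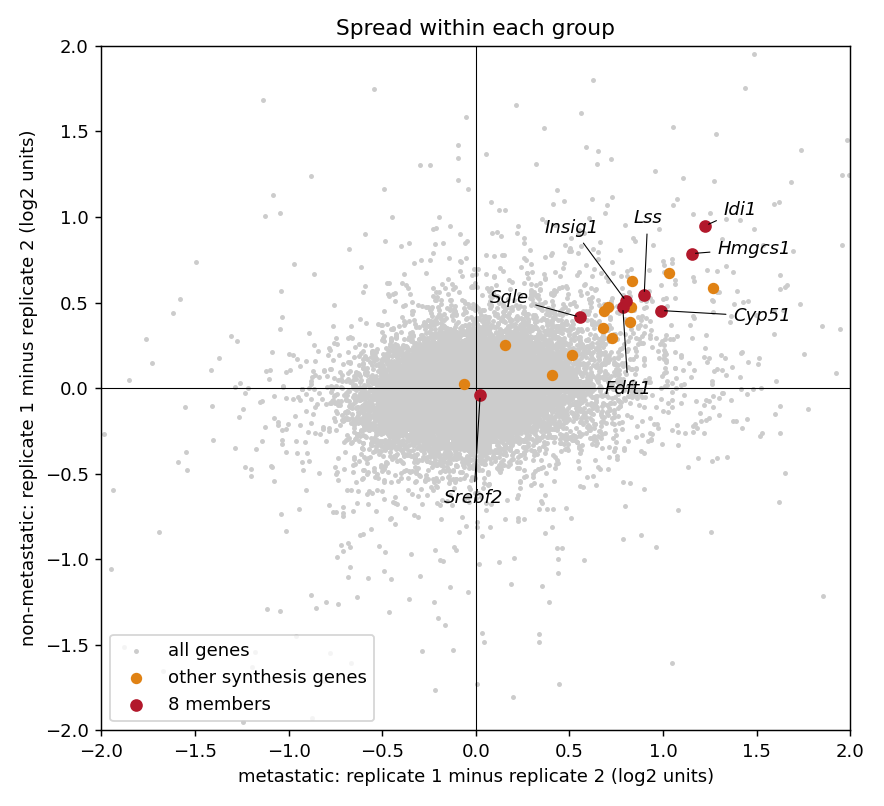
Replicate 1 minus replicate 2 in log2 units within the metastatic group (x axis) and within the non-metastatic group (y axis), for the 8 genes (red, named), 13 other synthesis genes (orange) and all genes (grey; 66 of 18193 lie outside the axes). Of the 8 genes, 7 lie to the upper right, from 0.56 and 0.41 for Sqle to 1.23 and 0.95 for Idi1, and Srebf2 lies near the origin.

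All 5 remaining regulators were higher in metastatic preparations and none passed, with a median difference of 0.11. At an unadjusted p under 0.05 there was 1, Insig2, where 2.63% of all genes were higher and 4.07% lower. The replicate 1 array was higher in both groups for 2 of 5, against 25.3% of all genes. Insig2, the paralogue of Insig1 that is not induced by SREBP2 in the same way, had 10.04 and 9.95 on the metastatic arrays and 9.73 and 9.55 on the non-metastatic arrays. Both metastatic arrays lay above both non-metastatic ones, with a difference of 0.35 (SE 0.12, limma adjusted p = 0.743). Srebf1, whose SREBP1 products chiefly serve fatty acid synthesis, had 10.27 and 10.17 against 10.01 and 10.00, a difference of 0.22 (SE 0.11), and the site-2 protease gene Mbtps2 one of 0.11 (SE 0.12), which ranged from 0.047 with metastatic replicate 2 left out to 0.17 with metastatic replicate 1 left out. For Insig2 and Srebf1, 2 of the 5, metastatic arrays lay wholly higher, against 17.2% of all genes. The same held for Srebf2 on its brightest probe set.

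Of 11 listed genes of lipoprotein uptake and intracellular sterol transport, 8 were measured, and 7 were higher and 1 lower, with a median difference of 0.26. None passed, and 2 had an unadjusted p under 0.05, both higher, where 2.63% of all genes were higher and 4.07% lower. Vldlr, a receptor for triglyceride-rich lipoproteins, had 9.82 and 9.68 on the metastatic arrays and 8.52 and 7.74 on the non-metastatic arrays, a difference of 1.62 (SE 0.26, limma adjusted p = 0.329). The array's naming marks this Vldlr probe set as open to cross-hybridization, and the mean of the gene's probe sets gave 1.11. Mylip, a ubiquitin ligase that is induced by LXR and limits lipoprotein uptake, had 8.74 and 8.80 against 8.46 and 8.33, a difference of 0.37 (SE 0.11). Stard4, a cytosolic sterol carrier, had 9.09 and 8.95 against 8.87 and 8.55, a difference of 0.31 (SE 0.15), which was 0.15 with non-metastatic replicate 2 left out and 0.47 with non-metastatic replicate 1 left out. These 3 genes, named for their small p, were also the 3 of 8 whose metastatic arrays lay wholly higher, as 17.2% of all genes did.

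Genes of LXR signalling and sterol efflux were divided in direction. Of 5 measured genes 1 was higher and 4 were lower, with a median difference of -0.22, and none passed. At an unadjusted p under 0.05, 1 was higher and 1 lower, where 2.63% of all genes were higher and 4.07% lower. Metastatic arrays lay wholly higher for 1 and wholly lower for 2, against 17.2% and 17.3% of all genes. Ch25h, which makes an oxysterol that suppresses SREBP processing, had 9.47 and 9.59 on the metastatic arrays and 9.98 and 10.09 on the non-metastatic arrays, a difference of -0.51 (SE 0.12, limma adjusted p = 0.487). The efflux transporter gene Abcg1 had 7.24 and 7.30 against 6.73 and 7.00, a difference of 0.40 (SE 0.13), and 0.27 with non-metastatic replicate 1 left out. Its relative Abca1 had 9.96 and 9.72 against 10.31 and 10.00, a difference of -0.32 (SE 0.16), which was -0.16 with non-metastatic replicate 1 left out, -0.19 with metastatic replicate 2 left out and -0.066 as the mean of its probe sets.

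Fatty acid synthesis, the SREBP1 side of the same control system, was higher in metastatic preparations for 9 of 10 genes, with a median difference of 0.31, and none passed. At an unadjusted p under 0.05 there were 4, all higher, where 2.63% of all genes were higher and 4.07% lower. The stearoyl-CoA desaturase gene Scd1 had 11.65 and 11.41 on the metastatic arrays and 10.84 and 10.88 on the non-metastatic arrays, a difference of 0.67 (SE 0.13, limma adjusted p = 0.383). The fatty acid desaturase genes Fads2 and Fads1 differed by 0.65 (SE 0.12) and 0.44 (SE 0.12). Metastatic arrays lay wholly higher for 4 of the 10, against 17.2% of all genes. The replicate 1 array was higher in both groups for 6 of the 10, against 25.3% of all genes.

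**Figure D4:**
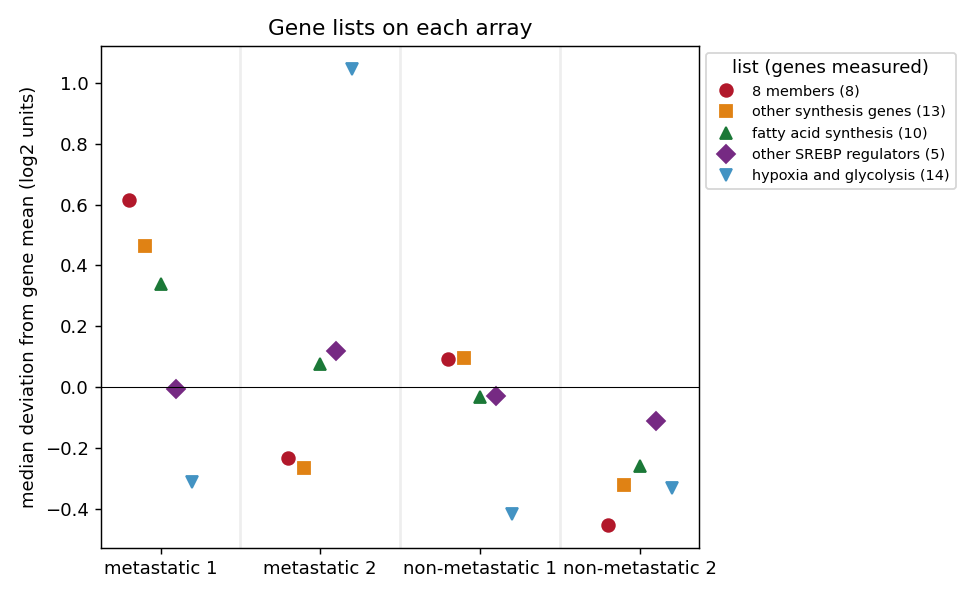
Median over a list's genes of the deviation from each gene's own mean over the 4 arrays, in log2 units (y axis), for 5 gene lists on each array (x axis). The 8 genes stand at 0.62 and -0.23 on the metastatic arrays and 0.09 and -0.45 on the non-metastatic arrays, while hypoxia and glycolysis genes stand at 1.05 on metastatic replicate 2 alone.

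Other genes moved with the same arrays, and their part in the result was not tested. The hypoxia and glycolysis list separated metastatic replicate 2, one of the arrays on which the cholesterol genes were low, from the other three, with Bnip3 at 9.92 and 12.35 on the metastatic arrays and 9.29 and 9.45 on the non-metastatic arrays. Bnip3, Aldoa and Vegfa differed between the groups by 1.76 (SE 0.73), 0.73 (SE 0.21) and 0.79 (SE 0.28), and 0.54, 0.43 and 0.35 with metastatic replicate 2 left out. Of the 14 hypoxia and glycolysis genes 2 were higher at an unadjusted p under 0.05, against 2.63% of all genes. Metastatic arrays lay wholly higher for 5 of the 14, against 17.2% of all genes. On non-metastatic replicate 2 the cholesterol genes were low as well, with a hypoxia list mean of 9.82 there. Of 7 measured proliferation genes all were lower in metastatic preparations, with a median of -0.24. At an unadjusted p under 0.05 there were 2, both lower, against 4.07% of all genes. Metastatic arrays lay wholly lower for 4 of the 7, against 17.3% of all genes. The replicate 1 array was higher in both groups for 0 of 7, against 25.3% of all genes. Rrm2, Mcm2 and Cdk1 differed by -0.76 (SE 0.15), -0.38 (SE 0.15) and -0.31 (SE 0.14). Mcm2 stood at -0.21 and Cdk1 at -0.16 with metastatic replicate 1 left out. By the array's naming, the Aldoa and Rrm2 probe sets are open to cross-hybridization and the Mcm2 one is shared by several genes.

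Of 3 measured adipocyte markers, Adipoq, the gene of adiponectin, had 9.04 and 4.52 on the metastatic arrays and 8.40 and 5.66 on the non-metastatic arrays, and so was higher on the replicate 1 array of each group, as the cholesterol enzymes were. Fabp4 had 12.22 and 10.95 against 11.27 and 11.70, and Cidec, of the lipid droplet, had 4.23 and 4.09 against 4.11 and 4.03. The mean of the list was 8.49 and 6.52 on the metastatic arrays and 7.93 and 7.13 on the non-metastatic arrays. Over whole lists the replicate 1 array was higher in both groups for 2 of 3 adipocyte markers, 6 of 8 endothelial and 2 of 5 lymphatic genes, against 25.3% of all genes. It was so for 0 of 6 smooth muscle and pericyte, 1 of 6 epithelial, 3 of 7 leukocyte and 2 of 7 fibroblastic stroma genes. Those of the stroma were Lum and Dcn, which had 9.88 and 8.63 against 10.23 and 8.23, while the replicate 2 array was higher in both groups for Col1a1, Col1a2 and Thy1. Leukocyte markers averaged 6.32 and 6.07 on the metastatic arrays and 6.65 and 6.39 on the non-metastatic arrays over 7 genes. Of these, 3 were higher and 4 lower in metastatic preparations. The pan-leukocyte gene Ptprc had 4.28 and 4.01 against 4.13 and 4.08. Metastatic arrays lay wholly lower for 2 of the 7, against 17.3% of all genes. These were Csf1r, with 9.61 and 9.26 against 9.88 and 10.07, and Lyz2, with 6.06 and 6.16 against 8.29 and 6.86. Wholly higher was 1 of the 7, Itgam, with 4.63 and 4.41 against 4.33 and 4.15, where 17.2% of all genes lay wholly higher. The remaining lists gave 6.61 and 6.05 against 6.89 and 6.68 for 5 lymphatic endothelial genes, 7.20 and 7.63 against 7.82 and 8.13 for 6 genes of smooth muscle and pericytes, and 5.71 and 5.82 against 5.87 and 5.96 for 6 epithelial genes. Of the 5 lymphatic genes 2 were higher and 3 lower, and Lyve1 had by far the widest difference, -2.76.

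Outside the lists, the genes closest to the mean profile of the 8 were found among 864 genes whose range over the 4 arrays was at least as wide as that profile's, 0.92 log2 units. Likeness was the root-mean-square distance over the 4 arrays after centring each gene on its own mean. The nearest were Rassf2, of the RAS-association domain family, at 0.019, the membrane glycoprotein gene Emb at 0.063, the lipid phosphatase gene Plpp3 at 0.070, the SLIT receptor gene Robo1 at 0.073 and the forkhead factor gene Foxc1 at 0.079 log2 units. Rassf2 had 7.32 and 6.50 on the metastatic arrays and 6.92 and 6.36 on the non-metastatic arrays. The 8 genes themselves lay at 0.060 (Lss) to 0.340 (Srebf2) from their mean. The 5 genes were picked for the smallest distances, so their closeness is no separate result. None of the 5 differed between the groups after adjustment (limma adjusted p = 0.966 to 0.984), as none of the 45037 probe sets did.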

How the data were processed

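RNA from 2 metastatic and 2 non-metastatic preparations was hybridized to 1 Affymetrix mouse array each. The authors deposited a log2 signal per probe set, a scale read from the values (3.10 to 14.87); how probes were summarised, or arrays normalized, is not given in the sources used here. The files analysed gave no detection calls, and the small number of arrays limits precision.

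Groups came from the sample titles. Array medians differed by 0.116 log2 units, above the 0.1 set as limit, so the arrays were quantile normalized. After removal of 64 control probe sets, limma (lmFit, eBayes) was fitted to 45037 probe sets as metastatic minus non-metastatic, with 2 residual and 3.71 prior degrees of freedom and Benjamini-Hochberg adjustment over all of them at 0.05. The platform annotation gave 34945 probe sets 1 symbol, updated by Entrez number for 34741. Promoter windows are RefSeq's. The fit was tested on simulated data. Members and lists were chosen with earlier results of these data known. Named genes were the 8 members, up to 3 genes per pathway list with the smallest p, Vldlr, Srebf1 and Insig2, and the 5 most like genes. Marker genes were named after their values were seen. Nothing states that same-numbered preparations were paired. Alternatives were deposited values, median centring, brighter probe sets, trend and robust moderation, a replicate block, mean probe sets and leaving out each array. R 4.3.3, limma 3.58.1, Python 3.11.15 and matplotlib 3.10.9 were used.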

Additional observations from a re-analysis of the deposited data

How the results depend on the processing

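No gene of the 8 passed under any of the alternatives run, and all 8 kept their direction under the deposited values, centred medians, the brighter probe sets, trend and robust moderation and the mean of probe sets. Over all probe sets limma called 0 in the main setting, 5 with trend and robust moderation, 145 with the replicate number as a block (replicate block), and 0 to 67 with single arrays left out, the 67 without metastatic replicate 1. With the replicate block, 0 of the 8 passed and 3 (Fdft1, Insig1 and Lss) had an unadjusted p under 0.05, and Vldlr had an adjusted p of 0.0238. Same-numbered arrays deviated together from their group means (r = 0.248 over probe sets, a single value since 2 pairs give no more), but the labels state no pairing. With single arrays left out, differences ranged from -0.32 to 0.83 for Hmgcs1, -0.65 to 0.58 for Idi1, -0.094 to 0.46 for Sqle, -0.093 to 0.81 for Lss, -0.23 to 0.76 for Cyp51, 0.07 to 0.86 for Fdft1, 0.01 to 0.81 for Insig1 and 0.16 to 0.20 for Srebf2. The same ranges were -0.041 to 1.23 for Mvd, -0.24 to 0.79 for Fdps, -0.26 to 0.42 for Pmvk, -0.045 to 0.78 for Tm7sf2, -0.087 to 0.60 for Hsd17b7, -0.15 to 0.67 for Dhcr7 and 0.54 to 2.98 for Bnip3, which passed without metastatic replicate 1 (adjusted p = 0.0292). With 2 arrays a group, each shift follows from the gap between replicates of the group that loses an array. The cause of those gaps was not tested. With 1 array left out the fit keeps 1 residual degree of freedom and takes the lone array of a group to vary like the other group. Averaging a gene's probe sets moved Fdft1, Fdps, Hsd17b7 and Abca1 by more than 1.5 times, as given with each. Low signals may lie near background, which cannot be judged without detection calls.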
